A study of Mus musculus with 2 samples.

Results

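The loci of 31 chemokine and chemokine receptor genes were examined for chromatin accessibility in mouse brain 48 h after stroke, out of 21730 genes counted in all. They were taken as a named list of 12 CC ligands, 9 CXC ligands, the CX3C ligand Cx3cl1, 4 CC receptors, 4 CXC receptors and the atypical receptor Ackr3. Each locus was its gene body plus 2 kb upstream in mm10, and no window of the list overlapped another. The list was not chosen on accessibility values by its rule, but it was drawn up with earlier results of these data known.

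Nuclei came from wild-type (WT) C57BL/6J male mice aged 8 to 12 weeks. In the stroke group a filament closed the middle cerebral artery for 1 h and blood flow was then restored, and the ipsilateral hemisphere was taken at 48 h. Sham mice underwent filament insertion without sustained occlusion. Olfactory bulb and cerebellum were left out of the tissue. For sham the tissue is given as brains, with no hemisphere named. Each condition was 1 library of nuclei pooled from 4 mice, so no comparison had a replicate, no test between conditions was possible, and the animal, the surgery, the tissue taken and the library cannot be told apart.

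Chemokines are small secreted or membrane-anchored proteins that bind G protein-coupled receptors on leukocytes and direct their movement. CC ligands act mainly on monocytes, macrophages and T cells, and the CXC ligands that bind Cxcr2 act mainly on neutrophils. After brain ischemia, microglia, astrocytes and vascular cells are known sources of inflammatory chemokines, whereas Cx3cl1 (fractalkine) is made by neurons and its receptor is carried by microglia.

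Many members lie in clusters. The 10 CC ligands from Ccl2 to Ccl4 lie on chr11:82035571-83664683, 6 CXC ligands on chr5:90759360-95961068, Ccr1, Ccr2 and Ccr3 on chr9:123962124-124113557, and Ccl22, Cx3cl1 and Ccl17 next to each other on chromosome 8. Windows of 5 members overlapped a gene outside the list, namely Ccl2 (Gm17268), Ccl6 (E230016K23Rik), Cxcl10 (Art3), Cxcl16 (Zmynd15) and Cxcr6 (Fyco1). Fragments carry no strand of transcription, so signal in these windows cannot be assigned to 1 of the overlapping genes.

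Promoter sequences are shown for 6 members on which the comparisons by cell class turn. They are from RefSeq on GRCm38.p6, the assembly of mm10, and run 5′ to 3′ on the gene's strand from 250 bases before the start to 50 bases after it. The windows are chr11:83649329-83649628 on the minus strand for Ccl3, chr11:82101595-82101894 on the plus strand for Ccl12, chr5:90890995-90891294 on the plus strand for Cxcl1, chr5:92348840-92349139 on the minus strand for Cxcl10, chr13:56296502-56296801 on the minus strand for Cxcl14 and chr8:94771930-94772229 on the plus strand for Cx3cl1. Capitals mark matches to the motif of NF-kB, a factor of inflammatory gene control, or of AP-1, an early-response factor.
Ccl3: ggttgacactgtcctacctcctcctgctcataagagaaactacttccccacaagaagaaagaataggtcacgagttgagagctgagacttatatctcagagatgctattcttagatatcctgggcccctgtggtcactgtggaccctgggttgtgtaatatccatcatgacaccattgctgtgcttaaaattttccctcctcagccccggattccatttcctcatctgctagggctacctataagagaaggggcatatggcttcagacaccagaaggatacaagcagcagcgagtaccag
Ccl12: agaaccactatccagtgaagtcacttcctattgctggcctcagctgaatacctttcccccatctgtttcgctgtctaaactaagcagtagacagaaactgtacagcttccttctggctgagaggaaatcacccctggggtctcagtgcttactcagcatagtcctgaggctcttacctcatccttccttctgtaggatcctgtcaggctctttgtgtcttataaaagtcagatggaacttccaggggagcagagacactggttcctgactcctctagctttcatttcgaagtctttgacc
Cxcl1: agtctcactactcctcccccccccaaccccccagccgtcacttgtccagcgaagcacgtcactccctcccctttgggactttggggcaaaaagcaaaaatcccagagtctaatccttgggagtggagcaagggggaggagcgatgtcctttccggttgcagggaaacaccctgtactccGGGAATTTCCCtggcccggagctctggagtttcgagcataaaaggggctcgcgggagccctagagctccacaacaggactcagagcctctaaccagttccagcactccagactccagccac
Cxcl10: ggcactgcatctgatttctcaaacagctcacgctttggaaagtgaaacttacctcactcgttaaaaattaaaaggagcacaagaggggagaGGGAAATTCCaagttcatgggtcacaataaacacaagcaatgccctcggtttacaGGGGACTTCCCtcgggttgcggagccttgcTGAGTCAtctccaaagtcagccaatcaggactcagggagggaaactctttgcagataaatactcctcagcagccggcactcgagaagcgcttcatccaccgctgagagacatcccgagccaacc
Cxcl14: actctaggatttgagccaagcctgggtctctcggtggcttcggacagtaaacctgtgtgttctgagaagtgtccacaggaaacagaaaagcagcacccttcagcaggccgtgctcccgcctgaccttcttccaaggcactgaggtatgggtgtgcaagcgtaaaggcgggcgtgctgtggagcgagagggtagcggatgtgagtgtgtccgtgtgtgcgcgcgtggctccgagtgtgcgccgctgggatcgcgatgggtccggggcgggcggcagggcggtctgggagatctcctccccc
Cx3cl1: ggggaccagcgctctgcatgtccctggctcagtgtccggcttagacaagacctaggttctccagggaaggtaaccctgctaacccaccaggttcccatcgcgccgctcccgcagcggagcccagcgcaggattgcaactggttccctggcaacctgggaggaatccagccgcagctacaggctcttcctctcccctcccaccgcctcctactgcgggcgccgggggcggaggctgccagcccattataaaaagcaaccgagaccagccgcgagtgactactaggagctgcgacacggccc

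Of the 31 members, 23 had an entry in this table. Ccl2, Ccl4, Ccl5, Ccl7, Ccl11, Cxcl5, Cxcl16 and Ccr7 had none. Motifs were searched on both strands. The AP-1 letters TGANTCA stood in 4 of the 23 promoters (Ccl9, Cxcl9, Cxcl10 and Ccr3) and in 7.81% of all 32851 promoters of the same length. The NF-kB motif stood in 6 of the 23 (Ccl9, Cxcl1, Cxcl2, Cxcl10, Ccr1 and Ccr3) and in 8.46% of all promoters. The letters GAGGAAGT of the myeloid factor PU.1 stood in Cxcr3 alone among the 23 and in 3.20% of all promoters. The promoters of Cxcl1 and Cxcl2 each held an NF-kB match that reads on both strands, starting 71 and 97 bases before the start. The printed windows of Ccl3, Ccl12, Cxcl14 and Cx3cl1 held none of the 3 motifs.

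Barcodes called as cells were split by the share of their fragments in peaks. The sham library had 6979 called barcodes, of which 6817 lay above 20% and 162 (2.32%) below. The stroke library had 8740, of which 5054 lay above and 3686 (42.2%) below, and the latter held 40.1% of the fragments of called barcodes. The nuclei above 20% carried 73477848 fragments in sham and 52794287 in stroke. They also differed in quality, with a median of 38.8% of fragments in peaks in sham and 33.2% in stroke, and 16.3% and 14.8% of fragments within 1 kb of a start site. Called barcodes shared by both libraries numbered 66, and doublets were not removed. Intervals in the following are exact 95% intervals that cover counting error only, not the spread between animals.

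Cell classes were gates built here on marker genes, none of them a member. The myeloid gate held 18 sham and 166 stroke nuclei, the astrocyte gate 306 and 470, the GABAergic gate 1493 and 836, and the mural/VLMC (vascular leptomeningeal cell) gate 66 and 136. In the stroke myeloid-like nuclei, fragments over the 22 myeloid markers were 3.44 times the level of all nuclei above 20%, with 0 markers at 0. Their microglial list was at 2.76, the granulocyte list at 1.99 and the monocyte/macrophage list at 1.67 times that level. The nuclei of the gate were not split by these lists. The gate selects on the 22 myeloid markers, so their level follows from its rule. In a held-out marker check, the gate was built on every other marker. The markers left out were then at 2.66 and 4.55 times the level of all nuclei, both libraries together. Here and for the other gates, markers left out still helped to find the similar nuclei over which marker fragments were summed. Such checks are thus not independent of them. Within 10% of the myeloid threshold lay 66 nuclei. Astrocyte-like nuclei held the astrocyte list at 3.40 times in sham and 3.31 times in stroke. These levels too follow from the gate's rule, and in its held-out marker check the markers left out were at 2.95 and 4.03 times. For the GABAergic gate the markers left out were at 1.86 and 2.08 times. Within 10% of its threshold lay 922 nuclei, and 112 of its nuclei had passed several gates. A glutamatergic gate of 1179 and 468 nuclei was weak, with 2583 nuclei within 10% of its threshold, and is called a gate only.

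In each library, the members spanned a wide range of accessibility. Density is given as cut sites per base over the genome-wide mean, which allows genes of different length to be compared. In sham nuclei above 20% it ran from 0.0741 at Ccr1 to 11.6 at Cx3cl1, with a median of 0.567. In stroke nuclei above 20% it ran from 0.286 at Ccr2 to 8.57 at Cx3cl1, with a median of 1.16. Over all genes the median was 1.74 in sham and 1.72 in stroke, so the typical member was less open than the typical gene in both libraries. The heat map of density by class shows that the most open class differed between members.

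**Figure D1:**
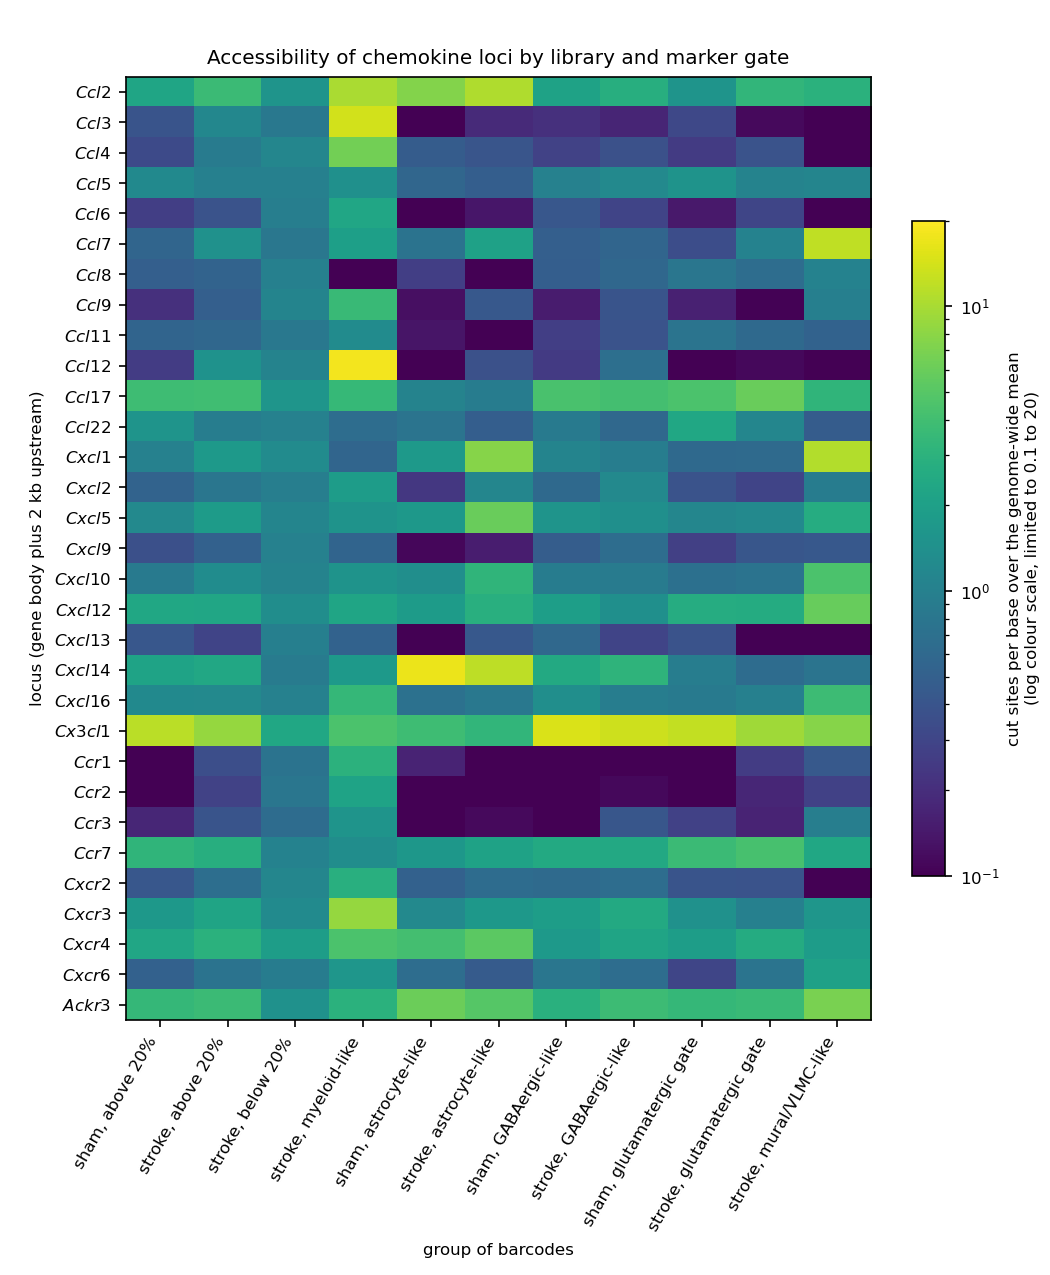
Density of each of the 31 loci (rows) in groups of barcodes (columns), as cut sites per base over the genome-wide mean on a log colour scale. Ccl12 (18.4) and Ccl3 (13.8) are brightest in stroke myeloid-like nuclei, Cxcl14 in astrocyte-like nuclei (17.0 sham, 11.8 stroke) and Cx3cl1 in GABAergic-like nuclei (14.9 sham, 13.3 stroke), while the column of stroke barcodes below 20% is nearly even.

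Stroke was first compared with sham over all nuclei above 20%. In all, 8 loci stood at least 2-fold higher in stroke, namely the ligands Ccl3, Ccl4, Ccl7, Ccl9 and Ccl12 and the receptors Ccr1, Ccr2 and Ccr3, and none stood 2-fold lower. That is 8 of 31 members, beside 4.34% of all genes tested that were at least 2-fold higher and 0.0192% that were 2-fold lower. The median stroke over sham ratio was 1.42 for the members and 0.98 for all genes. More nuclei of a type and more accessibility per nucleus cannot be told apart in such sums.

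Among CC ligands, Ccl12, which attracts monocytes through Ccr2, had the highest ratio. It had 28 fragments in sham, or 0.381 CPM (fragments over the group's total, scaled alike in every group), and 112 in stroke, or 2.12 CPM, a ratio of 5.57 (3.65 to 8.75). Ccl7, another Ccr2 ligand, had 64 and 119 fragments and a ratio of 2.59 (1.89 to 3.56). Ccl2, the main monocyte attractant of this group, had 259 and 300 fragments and a ratio of 1.61 (1.36 to 1.91), above 1 but under the 2-fold limit.

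Ccl3 and Ccl4, the macrophage inflammatory proteins, were also higher. Ccl3 had 41 fragments in sham and 86 in stroke, a ratio of 2.92 (1.99 to 4.34). Ccl4 had 40 and 80, a ratio of 2.78 (1.88 to 4.18). Ccl9, a ligand of Ccr1, had 47 and 83, a ratio of 2.46 (1.70 to 3.59). The other CC ligands stayed within 2-fold, from Ccl22, a T cell attractant that binds Ccr4, at 0.594 (384 and 164 fragments, 0.492 to 0.715) to Ccl2. Ccl17, the other Ccr4 ligand, was at 1.0 with 420 and 302 fragments.

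The CXC ligands held no locus past 2-fold in these nuclei. Cxcl1, which attracts neutrophils through Cxcr2, had the highest ratio of the 9, 1.70 (1.32 to 2.19), with 117 fragments in sham and 143 in stroke. Cxcl13, a B cell attractant, had the lowest, 0.696 (0.459 to 1.04), with 76 and 38 fragments. Cxcl12, the ligand of Cxcr4 and Ackr3, was the best covered with 1020 and 719 fragments and a ratio of 0.981 (0.891 to 1.08). Cx3cl1 was lower in stroke, with 4212 and 2235 fragments, or 57.3 and 42.3 CPM, and a ratio of 0.739 (0.701 to 0.778). Both neuronal gates held fewer nuclei in stroke, but the stroke library also had fewer nuclei above the limit on fragments in peaks. The part of these nucleus counts in the lower Cx3cl1 ratio was not tested. Within GABAergic-like nuclei the ratio was 0.887 (0.801 to 0.982), and within the glutamatergic gate 0.752 (0.658 to 0.858).

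Among receptors, Ccr1, which binds Ccl3 and Ccl9, had 19 fragments in sham and 65 in stroke, a ratio of 4.76 (2.82 to 8.41). Ccr2, the receptor of inflammatory monocytes, had 35 and 82, a ratio of 3.26 (2.17 to 4.99), but was not past 2-fold with promoters alone, with a limit of 30% in peaks or with each nucleus weighted equally. Ccr3, the eotaxin receptor, had 62 and 100, a ratio of 2.24 (1.62 to 3.13), and was not past 2-fold under the first pair of these settings. For Ccl12, Ccr1 and Ccr2 the whole interval lay at or above 2, as it did for 0.493% of all genes. The CXC receptors ran from 1.29 at Cxcr4 (1.12 to 1.48), the Cxcl12 receptor, to 1.59 at Cxcr2 (1.22 to 2.05). Ackr3, which takes up Cxcl12, was at 1.09 with 1458 and 1140 fragments, and Ccr7, which guides lymphocytes and dendritic cells to lymph nodes, at 0.868 with 1207 and 753. Cxcr3 lies on the X chromosome, present once in males, and its density is given against the expectation for a single copy.

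**Figure D2:**
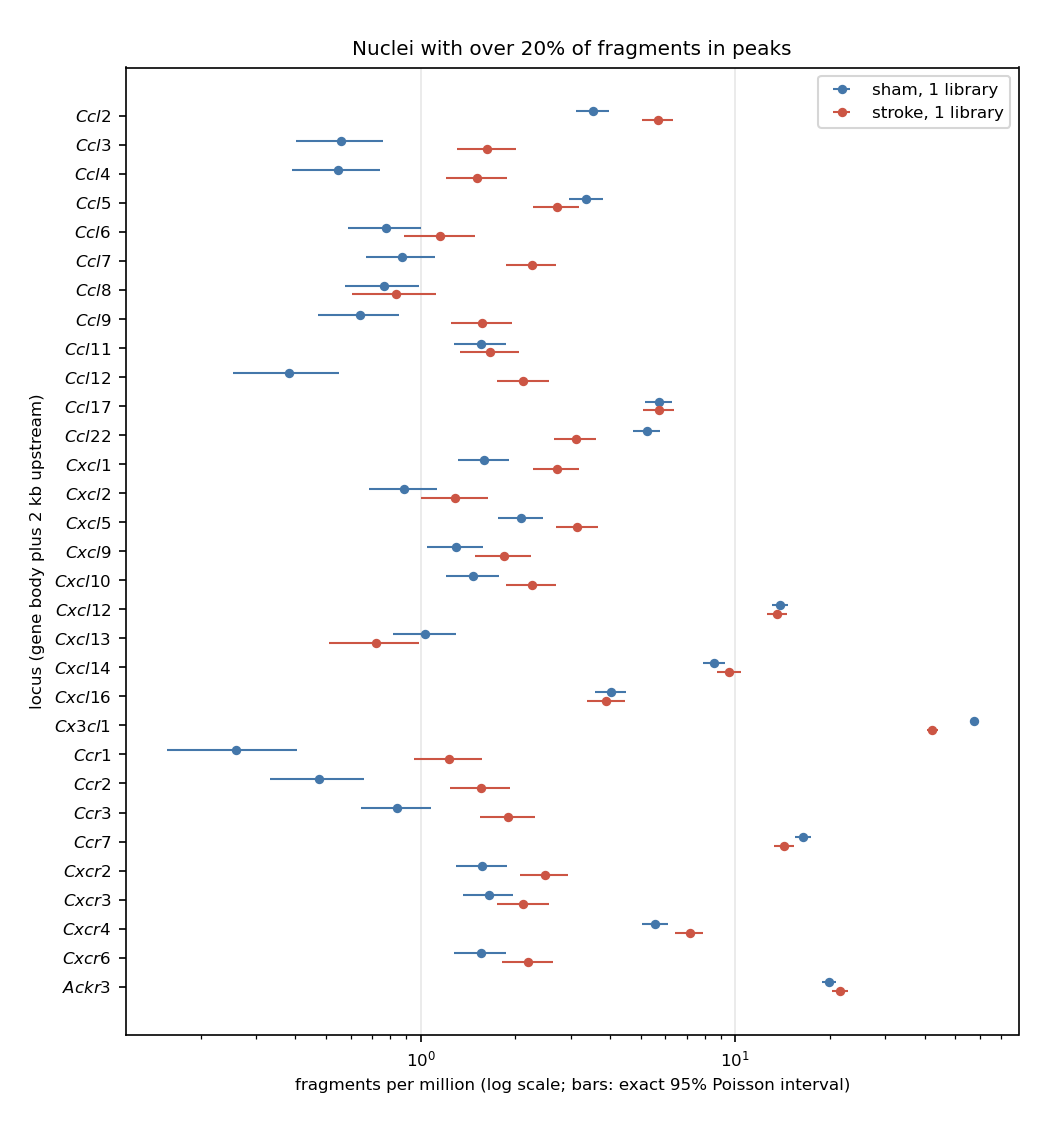
CPM (log axis, exact 95% Poisson intervals) at each locus in sham (blue) and stroke (red) nuclei above 20% of fragments in peaks, 1 library each. Ccl12, Ccr1 and Ccr2 are the most separated (0.381 and 2.12, 0.259 and 1.23, 0.476 and 1.55), and Cx3cl1 and Ccl22 lie lower in stroke.

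All 8 loci lay at or below the members' median density in sham. Their density there was 0.0741 to 0.567, and in stroke 0.286 to 1.49, with Ccl3, Ccl7 and Ccl12 above the genome-wide mean in stroke and the other 5 below it. The low end of all genes rose as well, since the 5th percentile of density was 0.0613 in sham and 0.125 in stroke. The part of this rise in the member ratios was not tested. Counting only promoters, 6 of the 8 remained past 2-fold (Ccl3, Ccl4, Ccl7, Ccl9, Ccl12 and Ccr1), beside 3.11% of all genes. At the Ccl12 promoter, 300 bases held 4 fragments in sham and 46 in stroke, and at that of Ccl3 15 and 51. Both stretches were picked as the densest in stroke myeloid-like nuclei. That favours a higher stroke value, so these counts are descriptions.

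Without the myeloid-like nuclei, 4 loci remained past 2-fold, beside 3.74% of all genes. They were Ccl7 at 2.54 (1.86 to 3.51), Ccl12 at 2.75 (1.69 to 4.55), Ccr1 at 3.14 (1.78 to 5.72) and Ccr2 at 2.35 (1.51 to 3.72). Ccl3 dropped to 1.49 (0.94 to 2.36), whereas Ccl4, Ccl9 and Ccr3 were at 1.96, 1.89 and 1.95. Thus 45 of the 86 stroke fragments of Ccl3 and 61 of the 112 of Ccl12 came from the 166 myeloid-like nuclei. Ccl7 was carried by other nuclei, with 112 of its 119 stroke fragments outside the gate. In nuclei that passed neither the myeloid nor the astrocyte gate, 6 loci were past 2-fold (Ccl4, Ccl7, Ccl12, Ccr1, Ccr2 and Ccr3), beside 3.86% of all genes. The same 6 were past it in nuclei that passed no gate, beside 4.36%. At least Ccr1 reached the limit on expected fragments there only through its stroke count, so that count of 6 is a description.

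A list of 32 other genes of the chemokine system was counted in the same way. Of these, 3 were at least 2-fold higher and 0 lower, beside the 4.34% and 0.0192% of all genes. They were Pf4, a platelet chemokine, with 44 and 80 fragments and a ratio of 2.53, Cxcl15 with 40 and 72 and a ratio of 2.51, and Rgs1, a regulator of G protein signalling, with 84 and 125 and a ratio of 2.07. Cx3cr1, the receptor of Cx3cl1 on microglia, was at 1.05.

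Within the stroke library, myeloid-like nuclei were compared with all other nuclei above 20%. The rule of at least 10 expected fragments left 8 members, of which Ccl2 was 2-fold higher and Ccr7 2-fold lower, beside 6.0% and 7.22% of all genes. With a looser gate, Ccl2 was not among the members called. Because the class holds 166 nuclei, that rule removed loci that are rarely open elsewhere. Without it, and asking that the whole interval lie at or above 2, 11 members were higher (Ccl2, Ccl3, Ccl4, Ccl6, Ccl9, Ccl12, Ccr1, Ccr2, Ccr3, Cxcr2 and Cxcr3), beside 3.53% of all genes. This interval rule was chosen after the data had been examined.

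Ccl12 and Ccl3 were the most enriched ligands. Ccl12 had 61 fragments in 47 myeloid-like nuclei, or 26.1 CPM (19.99 to 33.6), against 51 in all other stroke nuclei, a ratio of 25.9 (17.5 to 38.3). No nucleus gave more than 5 of them. Ccl3 had 45 fragments in 34 nuclei, or 19.3 CPM (14.1 to 25.8), against 41, a ratio of 23.7 (15.2 to 37.1). Both loci are thus sparse outside the class, although these other nuclei number 4888.

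Ccl4 followed at 10.4 (6.26 to 16.9), Ccl9 at 10.4 (6.33 to 16.8) and Ccl6, another mouse CC ligand, at 7.69 (4.06 to 13.9). Ccl2 had 37 fragments against 263, a ratio of 3.04 (2.09 to 4.30), so it was open both in and outside the class. Ccl7 was at 1.35 (0.531 to 2.88). Ccl8, a monocyte attractant, had 0 fragments in the class, where the floor of 3 counts is 1.29 CPM, against 44 fragments elsewhere. The ligands of 1 cluster on chromosome 11 therefore differed widely in this class, from 0 fragments at Ccl8 to 61 at its neighbour Ccl12.

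Among receptors, Ccr1 had 24 fragments against 41, a ratio of 12.7 (7.31 to 21.4), and Ccr2 27 against 55, a ratio of 10.6 (6.44 to 17.1). Cxcr2, the neutrophil receptor, was at 4.85 (2.98 to 7.60), with 6 of its 24 fragments from 1 nucleus. Ccr3 was at 4.74 (2.68 to 7.97) and Cxcr3, a receptor of activated T cells, at 4.42 (2.55 to 7.29). Of the Ccl12 and Ccl3 fragments, 51 of 61 and 41 of 45 lay within 1 kb of the start, in windows of 3.56 and 3.51 kb. At Ccr2 and Cxcr2 it was 4 of 27 and 3 of 24, in longer windows of 13.6 and 9.26 kb, so these shares are not compared.

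The CXC ligands varied among themselves. Cxcl1 had 2 fragments against 141, a ratio of 0.307 (0.0368 to 1.13), and Cxcl5, Cxcl9 and Cxcl10 lay between 0.811 and 1.18 on 5 or 6 fragments each. Cxcl16, a membrane-bound ligand of Cxcr6, was at 3.0 (1.89 to 4.58) and Cxcl2 at 2.48 (0.957 to 5.43) on 7 fragments. Cx3cl1 was at 0.505 (0.375 to 0.666) and Ccr7 at 0.469 (0.267 to 0.767). The sham myeloid gate held 18 nuclei and 132529 fragments, with at most 4 fragments at any member (Ccl2 and Ccl9), so stroke and sham could not be compared within it.

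Astrocyte-like nuclei were numerous enough in both libraries for 10 members. Of these, 3 were at least 2-fold higher in stroke and 0 lower, beside 3.69% and 1.34% of all genes. They were Cxcl1, Cxcl5 and Cxcl10, where Cxcl1 and Cxcl5 bind Cxcr2 and the interferon-induced Cxcl10 binds Cxcr3. Cxcl1 had 7 fragments in sham and 45 in stroke, a ratio of 4.44 (1.99 to 11.7). Cxcl5 had 8 and 38, a ratio of 3.28 (1.51 to 8.13), and Cxcl10 6 and 21, a ratio of 2.41 with an interval that includes 1 (0.943 to 7.31). None of the 3 had its whole interval above 2, beside 0.401% of all genes. All 3 reached the limit of 10 expected fragments only through their stroke counts, so the count of 3 is a description and supports nothing about the members as a group. With at least 30 expected fragments, 0 of 6 members were called. Without the nucleus holding most of its fragments in each group, Cxcl10 fell under 10 expected fragments and could not be compared. It was also not among the loci called with promoters alone, with nuclei weighted equally, or with a looser or stricter gate.

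Ccl2 was open in astrocyte-like nuclei of both libraries, with 30 fragments in sham and 62 in stroke and a ratio of 1.43 (0.908 to 2.28). Cxcl12 had 28 and 63, a ratio of 1.55 (0.98 to 2.52). Cxcl14, a ligand known for its steady expression in healthy tissue, went the other way, with 176 and 177 fragments, or 67.1 and 46.6 CPM, and a ratio of 0.694 (0.560 to 0.860). Cxcr4, Ccr7, Cx3cl1 and Ackr3 were between 0.800 and 1.29. Of the 21 members under 10 expected fragments, Ccl7 had 3 and 12 and Cxcl2 1 and 7. Ccl3 had 0 and 1 and Ccl12 0 and 2.

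The myeloid marker list was at 0.927 times the level of all nuclei above 20% in sham astrocyte-like nuclei and at 1.0 times in stroke, and neither Ccl3 nor Ccl12 held more than 2 fragments there. The microglial list was at 1.18 in sham and 1.26 in stroke. The granulocyte list was at 0.795 and 0.994 and the monocyte/macrophage list at 0.960 and 0.939. The mural list was at 1.61 and 1.71. Other lists moved in both directions from sham to stroke. The endothelial list went from 0.724 to 0.883, the T/NK list from 0.712 to 0.918 and the ependymal/choroid plexus list from 1.02 to 1.34. The GABAergic list went from 0.799 down to 0.633 and the glutamatergic list from 0.416 down to 0.358. What these shifts add to the member ratios was not tested. Of the astrocyte-like nuclei, 161 had passed several gates, and 109 nuclei lay within 10% of the threshold.

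Compared with all other stroke nuclei, astrocyte-like nuclei were at least 2-fold higher at Ccl2, Cxcl1, Cxcl5 and Cxcl14 and 2-fold lower at Ccl5, Ccl17, Ccl22 and Cx3cl1, of 13 members compared, beside 8.18% and 13.1% of all genes. Cxcl1 and Cxcl5 reached the limit of 10 expected fragments only through their counts in astrocyte-like nuclei. Ccl5, Ccl17 and Ccl22 reached it only through their counts in the other nuclei, so the counts of higher and of lower members are descriptions. Cxcl14 had the highest ratio, 6.94 (5.74 to 8.35), followed by Cxcl1 at 5.92 (4.06 to 8.51). Cxcl14 stood out in sham as well, at 10.5 (8.75 to 12.5). Ccl2 and Cxcl1 were not particular to this class. In an oligodendrocyte gate of 79 sham and 147 stroke nuclei, Ccl2 was the most open member, with a density of 11.3 and 7.78. It was also the most open member in sham mural/VLMC-like nuclei, at 13.6. That group held only 66 nuclei and 238100 fragments. Against all other sham nuclei, the Ccl2 interval there was not wholly above 2. At Cxcl1, stroke mural/VLMC-like nuclei had their whole interval above 2 against all other stroke nuclei.

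Within the loci, cut sites in 300-base tiles showed where the signal lay. Tiles were picked as the densest, those of Ccl2, Cxcl1, Cxcl5 and Cxcl12 in stroke, which favours a higher stroke value, so their ratios are descriptions. Those of Ccl3 and Ccl12 were picked in stroke myeloid-like nuclei, which favours a higher value there. In stroke astrocyte-like nuclei the tile over the Cxcl1 start held 30 fragments against 2 in sham, a ratio of 10.3 (2.63 to 89.4), and was at 57.5 and 6.41 times the genome mean. That tile contains the NF-kB match printed above. A tile 1100 to 801 bases before the Cxcl5 start held 21 against 2, a ratio of 7.24 (1.77 to 63.7), and one 1750 to 1451 bases before the Cxcl12 start held 24 against 2, a ratio of 8.28 (2.06 to 72.3). In sham the densest Cxcl12 tile was another, 5350 to 5649 bases after the start, at 28.9 times the genome mean (18 cut sites).

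Cxcl14 had a promoter tile and a tile in its intron, 1250 to 1549 bases after the start. The promoter held 54 fragments in sham and 77 in stroke, a ratio of 0.984 (0.686 to 1.42), whereas the intron held 61 and 45, a ratio of 0.509 (0.338 to 0.761). The intron tile was the densest tile of the sham nuclei and the promoter tile that of the stroke nuclei, so the choice of tiles itself favours this order, and no position is read from it. The Ccl2 promoter was at 56.1 times the genome mean in sham and 107 times in stroke astrocyte-like nuclei, with a fragment ratio of 1.62 whose interval includes 1 (0.977 to 2.77), and at 68.4 times in stroke myeloid-like nuclei. In the latter, the promoter tiles of Ccl3 and Ccl12 were at 95.4 and 88.2 times, with 0 cut sites in astrocyte-like nuclei of either library.

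**Figure D3:**
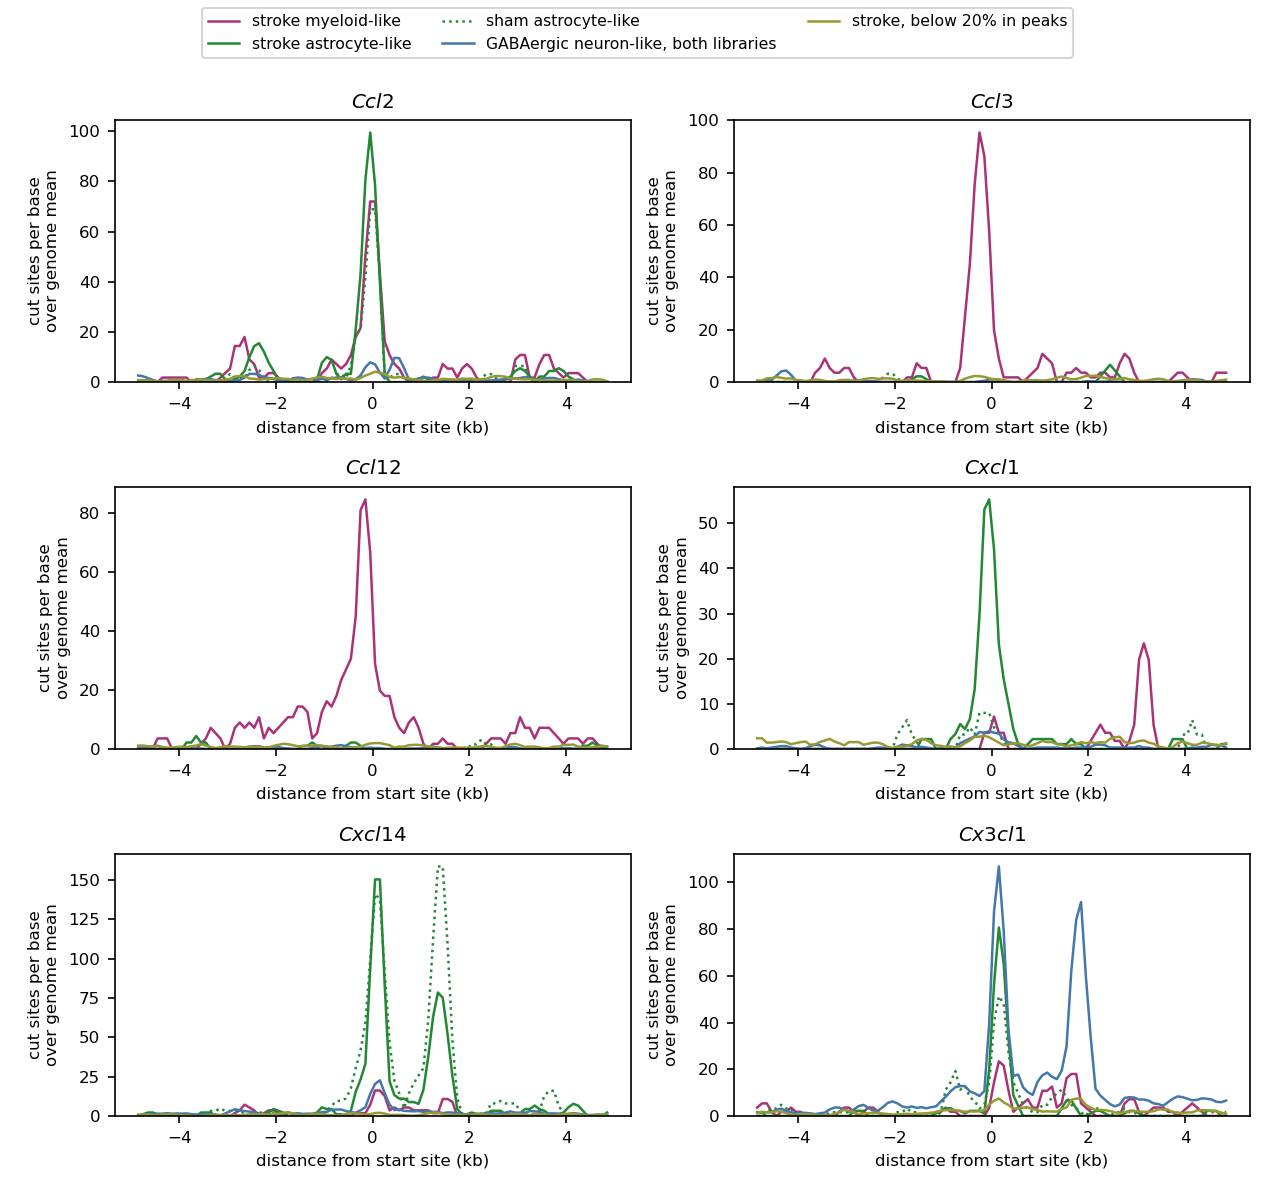
Cut sites per base over the genome mean (linear axes from 0) against distance from the start site in kb, in 100-base bins smoothed over 3 bins, for 6 loci and 5 groups of barcodes. Ccl3 and Ccl12 peak at the start in stroke myeloid-like nuclei only among these groups, Cxcl1 in stroke astrocyte-like nuclei, and Cxcl14 and Cx3cl1 each have another peak inside the gene.

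Cx3cl1 was open at its start in GABAergic-like nuclei at 107 times the genome mean and at an intron tile 1650 to 1949 bases downstream at 93.9 times. In astrocyte-like nuclei the start was at 51.3 times in sham and 80.7 times in stroke, with a fragment ratio of 1.38 (0.788 to 2.49), but the intron tile held 2 and 0 cut sites. Across all nuclei above 20% the promoter tile held 869 fragments in sham and 486 in stroke, and the intron tile 927 and 374.

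**Figure D4:**
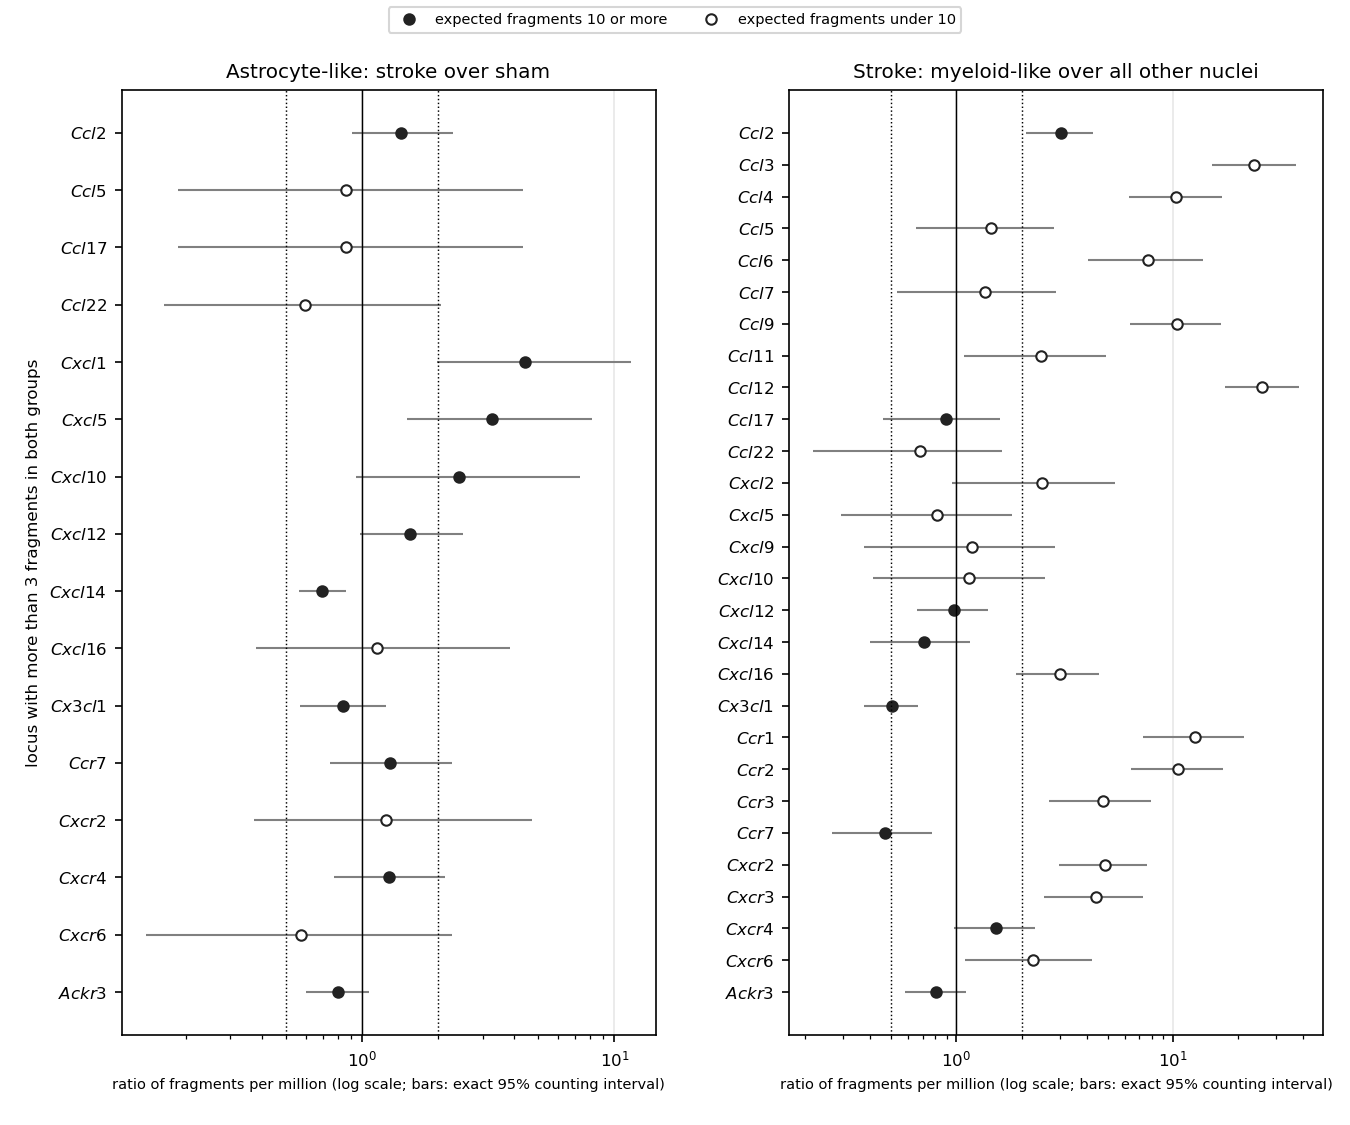
Ratios of CPM on log axes with exact 95% counting intervals, for loci with more than 3 fragments in both groups, in astrocyte-like nuclei (stroke over sham, left) and in stroke (myeloid-like over all other nuclei, right). Filled points have at least 10 expected fragments, dotted lines mark 2-fold, and Ccl12 (25.9) and Ccl3 (23.7) lie farthest right in the myeloid panel while Cxcl1 (4.44) does so in the astrocyte panel.

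Neuronal classes were compared in the same way. Cx3cl1 was higher in GABAergic-like nuclei than in all other nuclei, 1.41-fold in sham (1.32 to 1.51) and 1.72-fold in stroke (1.56 to 1.90). Of 20 members compared in GABAergic-like nuclei, 0 were 2-fold higher and 1 lower (Cxcl13, 26 and 6 fragments), beside 0.915% and 0.43% of all genes. Cxcl13 reached the limit on expected fragments only through its sham count, so the count of lower members is a description. With no filter on expected fragments, Ccr3 had its whole interval above 2, with 6 and 17 fragments and a ratio of 5.93 (2.23 to 18.4), beside 0.155% of all genes. Of those 17 fragments, 5 came from 1 nucleus. Of 13 in the glutamatergic gate, Ccl2 was higher (38 and 32 fragments, 2.13) and Ccl22 lower (128 and 25, 0.495), beside 0.873% and 0.47%. Neither Ccl2 nor Ccl22 had its whole interval past 2-fold there.

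Barcodes below 20% were then compared with those above it in the stroke library. Of the 31 members, 5 were at least 2-fold higher below 20% (Ccl6, Ccl9, Cxcl13, Ccr1 and Ccr2) and 6 lower (Ccl2, Ccl17, Cxcl14, Cx3cl1, Ccr7 and Ackr3). Ccl2, Ccl6, Ccl9, Ccl17, Ccr1 and Ccr7 were each lost under at least 1 other setting besides the scaling given next. All genes showed 16.8% higher and 36.1% lower, so the members were near the background in the higher direction and below it in the lower. Scaling to fragments within 1 kb of a start site multiplies every ratio here by 3.93, a log2 shift of 1.97, and then 25 members were higher and 0 lower, beside 61.6% and 0.0343% of all genes. The directions in this comparison thus depend on the scale.

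What does not depend on that scale is the spread. The limit on fragments in peaks itself selects for a narrower spread below it, so the narrowing is a description. The member densities narrowed from 0.286 to 8.57 above 20% to between 0.647 at Ccr3 and 2.35 at Cx3cl1 below it, with medians of 1.16 and 1.04. All genes narrowed too, from 0.125 and 8.71 at the 5th and 95th percentiles to 0.475 and 2.21. On the scale of all fragments, Cx3cl1 went from 8.57 to 2.35, a ratio of 0.274 (0.246 to 0.305) in CPM, and Ccr2 from 0.286 to 0.804, a ratio of 2.80 (2.13 to 3.71).

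Promoter tiles were set side by side as well, although the limit on fragments in peaks itself selects on such signal. The tile of Ccl2 went from 24.4 to 3.21 times the genome mean, that of Cx3cl1 from 69.3 to 7.48 and that of Ccl12 from 6.21 to 1.66. That of Ccl4 went from 3.42 to 2.02 and that of Ccl9 from 1.99 up to 2.73. The Ccl9 values rest on 25 and 23 cut sites, and its tile was picked as the densest below 20%, which favours a higher value there. The tiles of Ccl2, Ccl4, Ccl12 and Cx3cl1 were picked as the densest in classes above 20%, which favours a higher value above it. Ccl12 and Ccl3 as whole loci were at 0.732 (0.520 to 1.02) and 0.728 (0.491 to 1.06). These barcodes held 3.77% of their fragments within 1 kb of a start site and 13.2% of read pairs with low mapping quality, against 14.8% and 5.82% above 20%. On the scale of all fragments, their marker lists differed too. The monocyte/macrophage list was at 1.83 against 1.08 times the level of all nuclei above 20%, and the endothelial list at 1.74 against 1.09. The microglial list was at 0.581 against 1.08 and the glutamatergic list at 0.448 against 0.887. The part of these differences in the member ratios was not tested. In sham, the 162 barcodes below 20% allowed 5 members to be compared, of which Cx3cl1 was lower and 0 were higher, beside 36.6% and 3.35%.

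**Figure D5:**
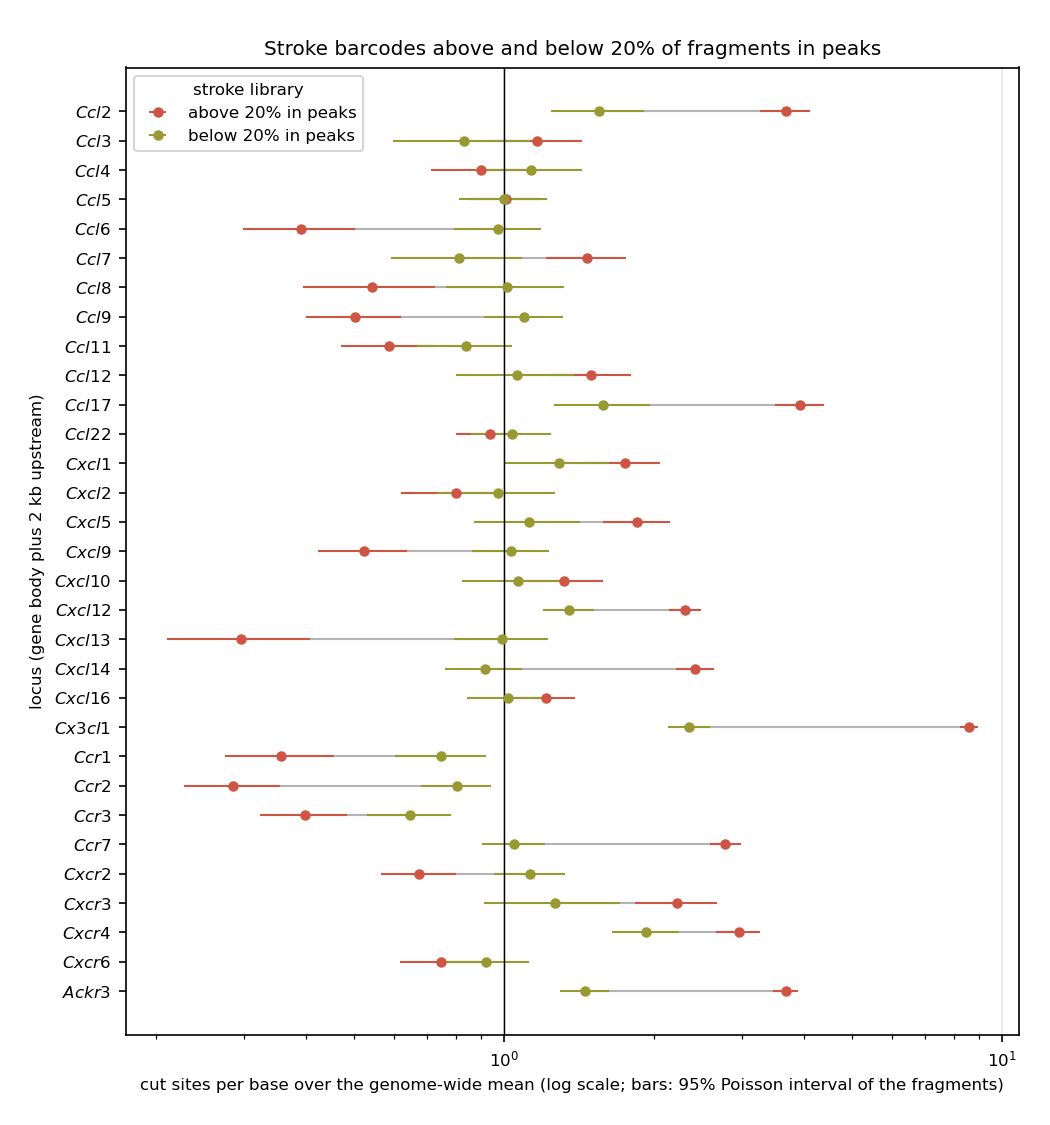
Density of each locus (cut sites per base over the genome-wide mean, log axis, 95% Poisson intervals of the fragments) in stroke barcodes above (red) and below (olive) 20% of fragments in peaks. The points below 20% lie between 0.647 and 2.35 and those above it between 0.286 and 8.57.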

How the data were processed

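The authors aligned scATAC-seq reads with Cell Ranger ATAC 2.1.0 to mm10, and the submitters' notes also name Cell Ranger ARC. The deposited fragment lists and barcode tables hold unnormalized counts. Read pairs numbered 103023027 in sham and 127304829 in stroke, giving 76959104 and 96465679 fragments.

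Fragments overlapping each GENCODE M21 gene body plus 2 kb upstream were summed per group and divided by the group's fragments. Called cell barcodes were split at 20% of passed fragments in peaks. With 1 library per condition, a locus was called at a ratio of at least 2, given at least 10 expected fragments in each group. A count of 0 was set to 3. Poisson and conditional binomial intervals were exact at 95%. Gates used marker fragments summed over the 20 nearest nuclei in 29 components, over their pooled expectation, in nuclei with at least 1000 fragments. Members and genes overlapping them were left out of the components. The limit was 2, or 1.5 for neurons. Motifs and 300-base tiles were counted directly. Scripts were tested on simulated data, in Python 3.11.15 with numpy 2.4.6, scipy 1.17.1, pandas 2.3.3, scikit-learn 1.9.0 and matplotlib 3.10.9.

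The members and lists were chosen with earlier results of these data known. Named were members past 2-fold in any comparison, the 10 with most fragments per kb, at least 1 per role, genes overlapping a member window and up to 6 other chemokine system genes past 2-fold, with other members added for contrast after their values were seen. Alternatives were another window, scaling, percent limit, depth filter, weighting, counting of cut sites, gate and filter on low values. A further 3 alternatives, the interval rule and those without myeloid-like nuclei or without the barcode with most fragments, were chosen after seeing the data. The scRNA-seq data were not used here.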

Additional observations from a re-analysis of the deposited data

How the results depend on the processing

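No paired analysis was possible because sham and stroke were single libraries. Of the 14 alternatives for the 8 loci higher in stroke above 20%, 12 stayed within 1.5 times that count, but not always with the same loci. Promoters alone gave 6 (3.11% of all genes), without Ccr2 and Ccr3, a limit of 30% gave 7 (1.83%), without Ccr2 and Ccr3 but with Cxcl1, and equal weights of nuclei gave 7 (4.63%), without Ccr2. The exceptions to the count were 3 with the whole interval past 2-fold (0.493%) and 4 without myeloid-like nuclei (3.74%). The count of loci lower in stroke, 0, became 1 with promoters alone (0.228% of all genes) and 1 with a limit of 30% in peaks (0.0945%), Cxcl13 in both. In astrocyte-like nuclei the count of 3 became 0 with the whole interval (0.401% of all genes), 6 with no filter on expected fragments (6.97%) and 0 with at least 30 expected (1.98%). Cxcl10 was not called with promoters alone (2.71%), equal weights (5.1%), a looser gate (3.12%) or a stricter gate (4.14%), where Cxcl12 was. In myeloid-like nuclei the count of 1 depended most on the processing. It was 11 with the whole interval (3.53% of all genes), 15 with no filter (10.3%), 4 with cut sites (6.89%), 2 with scaling to fragments near start sites (4.7%) and 2 with alternate markers (5.48%). It was 3 with a looser gate (4.96%), namely Cxcl16, Cxcr2 and Cxcr6, so the call on Ccl2 was lost. It was 0 with a limit of 30% (6.31%), without the 5% deepest nuclei (6.89%), with at least 30 expected (4.34%) or with a stricter gate (8.75%). Most of these settings change how many members could be compared, from 4 to 31. Below against above 20% in stroke, the 5 higher loci became 2 with the whole interval (11.7% of all genes), 3 with promoters alone (12.2%), 3 with a limit of 15% (16.3%) and 25 with scaling to fragments near start sites (61.6%), and the 6 lower loci became 13 with promoters alone (64.9%) and 0 with that scaling (0.0343%). Among the higher loci, Ccl9 was lost with the whole interval, limits of 15% and 30% and a depth range of over 1000 and under 100000 fragments in peaks, Ccl6 with the whole interval, promoters alone and the 15% limit, and Ccr1 with the whole interval and promoters alone. Among the lower, Ccl2 was lost with the whole interval, the 30% limit and that depth range, Ccl17 with the whole interval and the 30% limit, and Ccr7 with promoters alone. The cause was not tested beyond what each setting does by construction. That scaling moved log2 ratios by 0.13 for stroke over sham, 0.14 in astrocyte-like nuclei and -0.16 for myeloid-like nuclei. Single libraries, pooled brains and gates of 166 nuclei limit what these counts can show.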

Other observations

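Mural/VLMC-like nuclei of the stroke library carried few fragments (665018 in 136 nuclei), and most members could not be compared there. Ccl7 had 12 fragments, or 18.0 CPM, against 107 in all other stroke nuclei, a ratio of 8.79 (4.40 to 16.0), and Cxcl1 had 11, a ratio of 6.53 (3.18 to 12.1). Both were under 10 expected fragments and had their whole interval above 2, as did 2.51% of all genes with no filter. In sham mural/VLMC-like nuclei Ccl7 had 4 fragments against 60, a ratio of 20.5 (5.41 to 55.3), and its whole interval lay above 2 as well, beside 2.71% of all genes. In stroke mural/VLMC-like nuclei the Ccl7 density of 11.9 was the highest of any member, whereas Ccl3, Ccl4 and Ccl12 were at 0. In sham mural/VLMC-like nuclei, with 238100 fragments, the highest was Ccl2, at 13.6, without its whole interval above 2 against all other sham nuclei. The held-out marker check of this gate was uneven, at 4.01 and 1.77 times, and 400 nuclei lay within 10% of its threshold. Of its 66 sham and 136 stroke nuclei, 111 had passed several gates.

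In sham barcodes below 20%, Ccl6 had 16 fragments, of which 11 came from 1 barcode, and Ccl9 had 12, of which 9 came from 1 barcode.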
